A study of Mus musculus with 12 samples.

Results

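The 9 laminin chain genes described here, Lama1, Lama2, Lama3, Lama4, Lama5, Lamb1, Lamb2, Lamb3 and Lamc1, were the rows of the count tables that carry these symbols, 9 of 26264 symbols in all. Laminins are heterotrimers of an alpha, a beta and a gamma chain that polymerise into the sheet on which a basement membrane is built. In the mature glomerular basement membrane, the filter between podocytes and endothelium, the trimer is made from Lama5, Lamb2 and Lamc1, whereas Lama1 and Lamb1 products are found in the developing membrane and, in the adult, in mesangial matrix. Loss of Lamb2 causes congenital nephrotic syndrome in humans and mice, and Lama4 is the alpha chain of endothelium, Lama2 that of muscle and peripheral nerve, and Lama3 and Lamb3 belong to the epithelial laminin of skin.

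Glomerulus-enriched RNA was sequenced from 8-week-old male mice of 2 substrains from the same vendor, BALB/cAjcl, called AJcl here, and BALB/cByJcl, called ByJcl. Baseline mice were untreated, and Day 5 mice were taken 5 days after 1 intravenous dose of 10 mg/kg Adriamycin (ADR, doxorubicin hydrochloride), an anthracycline that injures podocytes in susceptible strains. Each of the 4 groups had 3 libraries, and the labels do not say whether each library came from a separate mouse, so p-values measure the spread between libraries. The study set aside AJcl Day 5 replicate 1 (A-ADR1) for reduced glomerular purity, and the group means and, unless stated otherwise, the tests below leave it out, so that AJcl Day 5 has n = 2 and 11 libraries enter the fit. Its own levels are given beside those of the others for the genes described one by one.

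Total counts per library ran from 42198416 to 54687045, so that 3 counts corresponded to 0.0549 to 0.0711 CPM (counts scaled to the library total), a floor that covers counting error only. All other CPM values are normalised with TMM over the 12 libraries. Podocyte genes were high in every library, with a summed level of 8 markers of 12180 to 17350 CPM at baseline and 8753 to 13640 CPM at Day 5, against 9186 CPM in A-ADR1. The 8 proximal tubule markers summed to 341 to 3503 CPM in the 11 libraries and to 3531 CPM in A-ADR1, and none of the markers of either list was at 0 counts in any library. Over 17002 genes tested with edgeR's quasi-likelihood test, the share called at a Benjamini-Hochberg adjusted p below 0.05 was 0.159% between substrains at baseline, 0.165% between substrains at Day 5, 0.312% for Day 5 against baseline in AJcl and 10.6% for the same contrast in ByJcl. The share was 10.4% for the ADR contrast averaged over substrains and 0.565% for the substrain contrast averaged over times. The test of whether the ADR response differed between substrains called 0 genes (0%), with 1363 genes at an unadjusted p below 0.05, and DESeq2 called 23. The baseline and Day 5 counts came in separate tables, so a difference in how the tables were made cannot be told apart from ADR.

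Lamb1 was the only gene of the 9 that passed the edgeR test in any contrast, and it was lower at Day 5. The promoters of Lamb1 and of Lamb2, the beta chain that replaces it as the glomerular basement membrane matures, are shown because the ratio of these 2 genes differed between the times. They span 250 bases before to 50 bases after the gene start (RefSeq, GRCm38.p6), and capitals mark the GC box, GGGCGG on either strand (CCGCCC on the strand shown).
Lamb1, chr12:31265043-31265342, plus strand: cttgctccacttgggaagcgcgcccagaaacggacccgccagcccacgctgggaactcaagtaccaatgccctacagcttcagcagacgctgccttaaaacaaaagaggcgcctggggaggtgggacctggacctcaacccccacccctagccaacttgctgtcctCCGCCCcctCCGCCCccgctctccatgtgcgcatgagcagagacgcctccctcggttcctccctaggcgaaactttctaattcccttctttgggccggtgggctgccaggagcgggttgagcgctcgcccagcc
Lamb2, chr9:108479612-108479911, plus strand: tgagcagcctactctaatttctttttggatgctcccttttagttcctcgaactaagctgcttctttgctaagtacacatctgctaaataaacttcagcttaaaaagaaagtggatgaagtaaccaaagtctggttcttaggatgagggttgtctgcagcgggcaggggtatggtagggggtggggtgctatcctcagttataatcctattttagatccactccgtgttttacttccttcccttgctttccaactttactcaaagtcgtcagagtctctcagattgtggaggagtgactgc
The Lamb1 window was 63.7% G and C and held 2 GC boxes and 1 CCAAT sequence, and the Lamb2 window was 44.0% G and C and held neither. Neither window held TATAAA. A GC box was found in 35.7% of the 32851 promoter windows of the table, CCAAT (or ATTGG) in 37.4% and TATAAA (or TTTATA) in 13.6%. These 3 letter strings do not overlap one another in the windows shown, and a match is a description of the letters only.

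The amounts of the chains were first compared per kilobase of exon (CPM per kb, exon union of GENCODE vM39 on GRCm39). Levels that are not divided by length cannot be set side by side between genes. The union holds every annotated exon (10.7 kb for Lamb1, 6.09 kb for Lamb2), so these values depend on the annotation. Other lengths were not tried. Lamb2 was the highest in each group, at 132 ± 19.7 (SD, n = 3) in AJcl at baseline, 160 ± 2.52 (n = 3) in ByJcl at baseline, 143 ± 5.56 (n = 2) in AJcl at Day 5 and 136 ± 5.70 (n = 3) in ByJcl at Day 5. Lama5 followed, with group means between 46.2 and 74.3 CPM per kb. Lamc1 and Lamb1 came next and overlapped at baseline, where ByJcl had 25.0 ± 1.22 CPM per kb of Lamc1 and 25.2 ± 3.49 of Lamb1 (n = 3 each). The AJcl baseline libraries had 16.8, 22.1 and 21.7 of Lamc1 and, in the same order, 19.1, 23.3 and 24.4 of Lamb1, which was the higher in each. At Day 5 their libraries were apart in both substrains, with 25.5 to 32.0 CPM per kb of Lamc1 and 10.1 to 18.3 of Lamb1 in ByJcl, and 19.5 and 23.4 of Lamc1 and 18.9 and 16.5 of Lamb1 in AJcl. A-ADR1 had the reverse order, which was that of the AJcl baseline libraries, with 11.7 of Lamc1 and 17.8 of Lamb1. The chains of the mature glomerular trimer, Lama5, Lamb2 and Lamc1, were thus the leading chains of their type among those compared.

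Lama3, Lama4 and Lama2 had group means between 1.26 and 4.08 CPM per kb, in the same range as the gamma chain Lamc3 (3.22 to 4.39). Neighbours in this stretch of the order overlapped in at least 1 group. Lama1 had 0.497 to 0.749 CPM per kb. Lamb3 was near the floor, with 2 to 16 counts per library in the 11 libraries and group means of 0.0118 to 0.0302 CPM per kb. It passed the filter on low counts, but no difference in it is read at this depth.

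**Figure D1:**
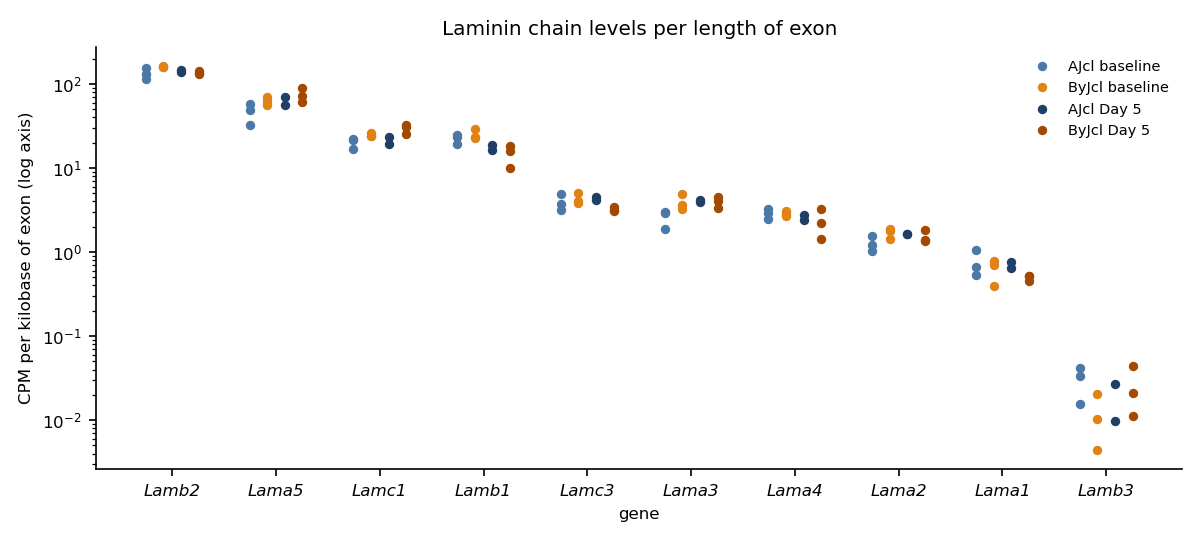
Levels of the 9 laminin chain genes and of Lamc3, as CPM per kilobase of exon on a log axis, with 1 point per library for the 11 libraries and colours for the 4 groups. Lamb2 and Lama5 lie above all others, Lamc1 and Lamb1 overlap at baseline, and Lamb3 lies far below.

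As shares of their own chain type on that scale, Lama5 made up 84.6% to 92.0% of the alpha chains over the 11 libraries, and Lamb2 made up 84.2% to 93.0% of the beta chains. Lamb1 held 14.4% ± 1.26 of the beta chains in AJcl and 13.6% ± 1.64 in ByJcl at baseline (n = 3 each). At Day 5 its share was 11.02% ± 1.32 in AJcl (n = 2) and 9.79% ± 2.46 in ByJcl (n = 3). Of the sum of Lamc1 and Lamc3, Lamc1 made up 83.8% ± 1.77 in AJcl and 85.3% ± 2.25 in ByJcl at baseline (n = 3 each), and 82.9% ± 2.59 (n = 2) and 90.01% ± 1.25 (n = 3) at Day 5. Its Day 5 shares ran from 81.1% to 84.7% in AJcl and from 88.8% to 91.3% in ByJcl and did not overlap. In A-ADR1 the shares were 83.7% for Lama5, 84.9% for Lamb2, 15.03% for Lamb1 and 79.2% for Lamc1, and its Lamb1 share lay within the range of AJcl at baseline. These shares depend on the same exon lengths and were not tested.

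The levels from here on are CPM without division by length, and the log2 fold changes (log2FC) and their standard errors (SE) are from the fit to 11 libraries. Lamb1 (chromosome 12, 31315030 to 31379658, plus strand, GRCm39) had 205, 250 and 262 CPM in the AJcl baseline libraries and 254, 314 and 245 CPM in the ByJcl baseline libraries. At Day 5 it had 203 and 177 CPM in AJcl, 191 CPM in A-ADR1, and 197, 109 and 172 CPM in ByJcl. In both substrains every Day 5 library lay below every baseline library, including A-ADR1, and ByJcl replicate 2 was the lowest of all. Over all genes, groups did not overlap between the times for 25.1% in AJcl and 33.4% in ByJcl.

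In ByJcl, Lamb1 fell from 271 ± 37.4 to 159 ± 45.5 CPM (n = 3 each), a log2FC of -0.78 (SE 0.19, 95% interval -1.21 to -0.36, edgeR adjusted p = 0.0282). Of the 17002 genes, 4.83% were called lower in this contrast. In AJcl, Lamb1 was 239 ± 30.2 CPM at baseline (n = 3) and 190 ± 18.2 CPM at Day 5 (n = 2), with a log2FC of -0.32 (SE 0.22, 95% interval -0.80 to 0.16) that did not pass the test (edgeR adjusted p = 0.719). Averaged over the substrains, the log2FC was -0.55 (SE 0.15, edgeR adjusted p = 0.0364), where 4.15% of all genes were called lower. The difference between the 2 responses was -0.46 (SE 0.29, 95% interval -1.10 to 0.17, edgeR adjusted p = 0.691), so the fall was not shown to differ between substrains. That difference was -0.62 without ByJcl Day 5 replicate 1 and -0.25 without replicate 2.

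The call in ByJcl was lost without any 1 of the 3 ByJcl baseline libraries, where the log2FC was -0.83, -0.66 and -0.85 (edgeR adjusted p = 0.0592, 0.107 and 0.05004). It was also lost without ByJcl Day 5 replicate 2 or 3, where the log2FC was -0.57 and -0.83 (edgeR adjusted p = 0.0646 and 0.0507). The averaged call was lost in 7 of the 11 such fits, namely without AJcl baseline replicate 2 or 3, any of the 3 ByJcl baseline libraries, or either AJcl Day 5 library, with an edgeR adjusted p of up to 0.184. With A-ADR1 included, both calls held, at -0.77 (edgeR adjusted p = 0.0367) in ByJcl and -0.55 (edgeR adjusted p = 0.0282) averaged. Both were lost with the replicate numbers as a block, as given further below. Exons of Lamb1 share 2.82% of their bases with Dld and 4.79% with Gm61290 on the opposite strand, and the strand setting of the counting is not given in the sources used here.

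Podocyte markers moved in the same contrast. In ByJcl at Day 5, 7 of the 8 markers fell (Nphs1, Podxl, Synpo, Wt1, Ptpro, Tcf21 and Magi2), Cdkn1c rose, and the median log2FC of the list was -1.11, against 0.01 over all genes. In AJcl, where 0.312% of all genes were called against 10.6% in ByJcl, none of the 8 passed the test and the median was -0.32. The summed podocyte level ran from 15370 to 17350 CPM at baseline and from 8753 to 11820 CPM at Day 5 in ByJcl, and from 12180 to 16570 and from 10710 to 13640 CPM in AJcl. Glomerular endothelial markers (8 genes) summed to 7653 to 9101 CPM at baseline and 4872 to 7177 CPM at Day 5 in ByJcl, where Ehd3 and Flt1 fell, Plvap rose and the other 5 did not pass the test (median log2FC -0.26, 3 of 8 above 0). Mesangial markers (6 genes) summed to 2399 to 2875 CPM and 2605 to 3606 CPM there, and of them only Serpine2 passed the test and rose. Among markers of other cells, Tagln of smooth muscle, Cldn1 of parietal epithelium and Cd68 of macrophages also rose there (1 of 5, 1 of 5 and 1 of 6 markers, beside 10.6% of all genes). The other markers of these 3 lists did not pass the test, and the log2FC was above 0 for 4 of 5, 4 of 5 and 3 of 6, with medians of 0.11, 0.08 and 0.15. The part of these shifts in the level of Lamb1 was not tested, and in bulk RNA fewer cells of a type and less RNA per cell cannot be told apart.

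**Figure D2:**
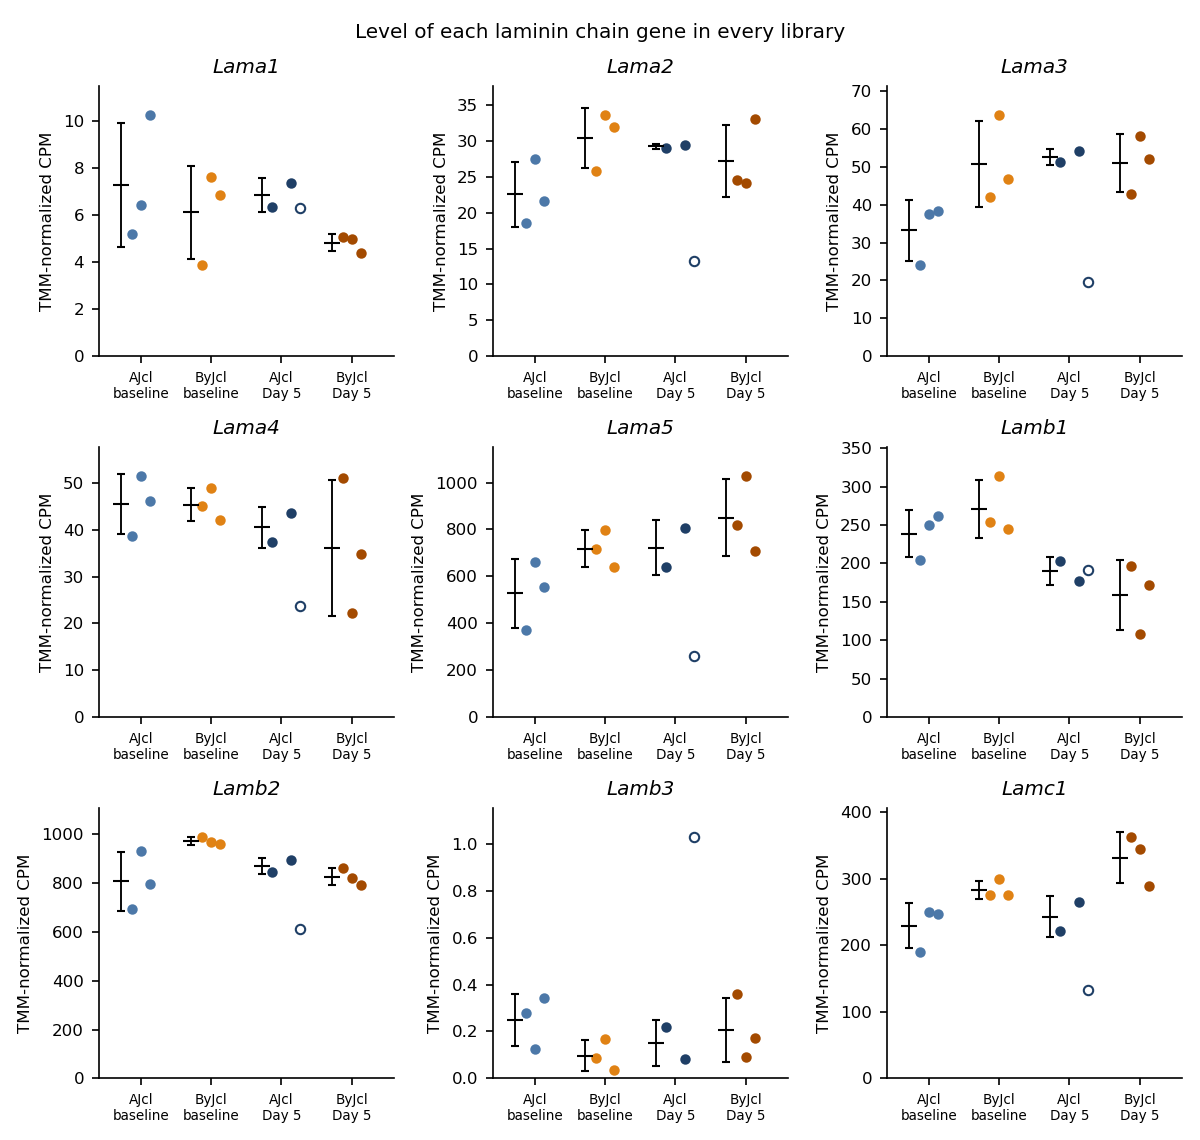
TMM-normalised CPM of each laminin chain gene in each library, in 4 groups. Filled points are the 11 libraries of the fit, the open circle is A-ADR1, and bars to the left of the points are the mean ± SD of the filled points. For Lamb1 the Day 5 libraries lie below the baseline libraries in both substrains, whereas those of Lama5 and Lamb2 in AJcl overlap.

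Lamb2 (chromosome 9, 108356935 to 108367729, plus strand, GRCm39), the beta chain of the mature filter, had 692, 931 and 798 CPM in AJcl and 989, 969 and 959 CPM in ByJcl at baseline. The 3 ByJcl libraries lay above the 3 AJcl libraries, as did 14.5% of all genes in one direction or the other, and the log2FC of 0.30 (SE 0.12) did not pass the test (edgeR adjusted p = 0.583). At Day 5 it had 847 and 895 CPM in AJcl, 612 CPM in A-ADR1, and 863, 822 and 794 CPM in ByJcl. In ByJcl each Day 5 library lay below each baseline library, but the log2FC of -0.25 (SE 0.12, 95% interval -0.52 to 0.02) did not pass the test (edgeR adjusted p = 0.217). In AJcl the log2FC of Lamb2 was 0.12 (SE 0.14) and the groups overlapped. With each library left out, it ran from 0.0105 to 0.26, and the baseline difference between substrains from 0.17 to 0.43.

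Because both beta chains are read in the same library, their ratio does not depend on how libraries are scaled. At baseline there were 0.296, 0.268 and 0.329 counts of Lamb1 per count of Lamb2 in AJcl and 0.257, 0.324 and 0.255 in ByJcl. At Day 5 AJcl had 0.239 and 0.198, and ByJcl had 0.228, 0.132 and 0.217, so that the 5 Day 5 libraries lay below the 6 baseline libraries. A-ADR1 did not follow them, with a ratio of 0.312. The mean difference of the log2 ratio was -0.51 (-0.45 in AJcl, -0.57 in ByJcl; exact two-sided permutation test within substrains over 200 arrangements, p = 0.005, the smallest they can give, adjusted p = 0.0267 over 8 ratio tests). With A-ADR1 included the difference was -0.42 and the adjusted p of the exact permutation test was 0.0667. With each of the 11 libraries left out in turn, which leaves fewer arrangements, the adjusted p was above 0.05 in 10 of 11 tests (0.0400 to 0.107), the exception being the test without ByJcl Day 5 replicate 1. The difference ran from -0.58 to -0.38 in these tests, and with fewer arrangements the smallest p that can be reached is larger. Between substrains the ratio of Lamb1 to Lamb2 did not pass the test (difference -0.16, exact permutation adjusted p = 0.445). That difference was -0.25 with A-ADR1 included and ran from -0.23 to -0.0341 with each library left out.

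Lama5 (chromosome 2, 179818166 to 179867712, minus strand, GRCm39), the alpha chain of the mature filter, had 371, 661 and 555 CPM in AJcl and 717, 798 and 642 CPM in ByJcl at baseline. Day 5 levels were 639 and 807 CPM in AJcl, 260 CPM in A-ADR1, and 817, 1028 and 707 CPM in ByJcl. The groups overlapped in all 4 contrasts, and A-ADR1 had the lowest value of the 12 libraries. The log2FC at Day 5 was 0.46 (SE 0.23, 95% interval -0.05 to 0.98) in AJcl and 0.23 (SE 0.21, 95% interval -0.24 to 0.69) in ByJcl, with edgeR adjusted p of 0.572 and 0.538. With each library left out, these ran from 0.25 (without AJcl baseline replicate 1) to 0.68 (without AJcl baseline replicate 2) and from 0.0695 to 0.36 (without ByJcl Day 5 replicates 2 and 3). Between substrains the log2FC was 0.47 (SE 0.21) at baseline and 0.23 (SE 0.24) at Day 5, with edgeR adjusted p of 0.595 and 0.679, and these ran from 0.24 to 0.68 (without AJcl baseline replicates 1 and 2) and from 0.0713 to 0.43 (without AJcl Day 5 replicates 2 and 3). With A-ADR1 included, the log2FC of Lama5 was 0.10 for ADR in AJcl and 0.58 between substrains at Day 5 (edgeR adjusted p = 0.964 and 0.388).

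Lamc1 (chromosome 1, 153094597 to 153208774, minus strand, GRCm39), the gamma chain of most laminins, had 190.0, 251 and 246 CPM in AJcl and 275, 299 and 275 CPM in ByJcl at baseline. Day 5 levels were 221 and 265 CPM in AJcl, 132 CPM in A-ADR1, and 363, 344 and 289 CPM in ByJcl. At both times every ByJcl library lay above every AJcl library, a separation that 14.5% of genes had in either direction at baseline and 33.4% at Day 5. The log2FC of ByJcl against AJcl was 0.33 (SE 0.13, edgeR adjusted p = 0.580) at baseline and 0.45 (SE 0.15, edgeR adjusted p = 0.245) at Day 5. It ran from 0.19 to 0.42 at baseline (without AJcl baseline replicates 1 and 2) and from 0.32 to 0.60 at Day 5 (without AJcl Day 5 replicates 2 and 3). Averaged over times it was 0.39 (SE 0.10, 95% interval 0.17 to 0.61), with an adjusted p of 0.124 by edgeR and of 0.0169 by DESeq2. Lamc1 was thus past the threshold in 1 of the 2 tools. Over all genes, edgeR called 96 and DESeq2 696 in that contrast. In ByJcl against AJcl, the log2FC was above 0 for 8 of 8 podocyte markers at baseline and for 1 of 8 at Day 5. It was above 0 for 6 of 6 mesangial markers and 0 of 8 proximal tubule markers at each time, against 51.4% and 50.3% of all genes. The part of these shifts in the laminin levels was not tested. With A-ADR1 included, the log2FC of Lamc1 between substrains at Day 5 was 0.69 (edgeR adjusted p = 0.144). From baseline to Day 5 its log2FC was 0.10 (SE 0.15) in AJcl and 0.21 (SE 0.13) in ByJcl, and neither passed the test.

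**Figure D3:**
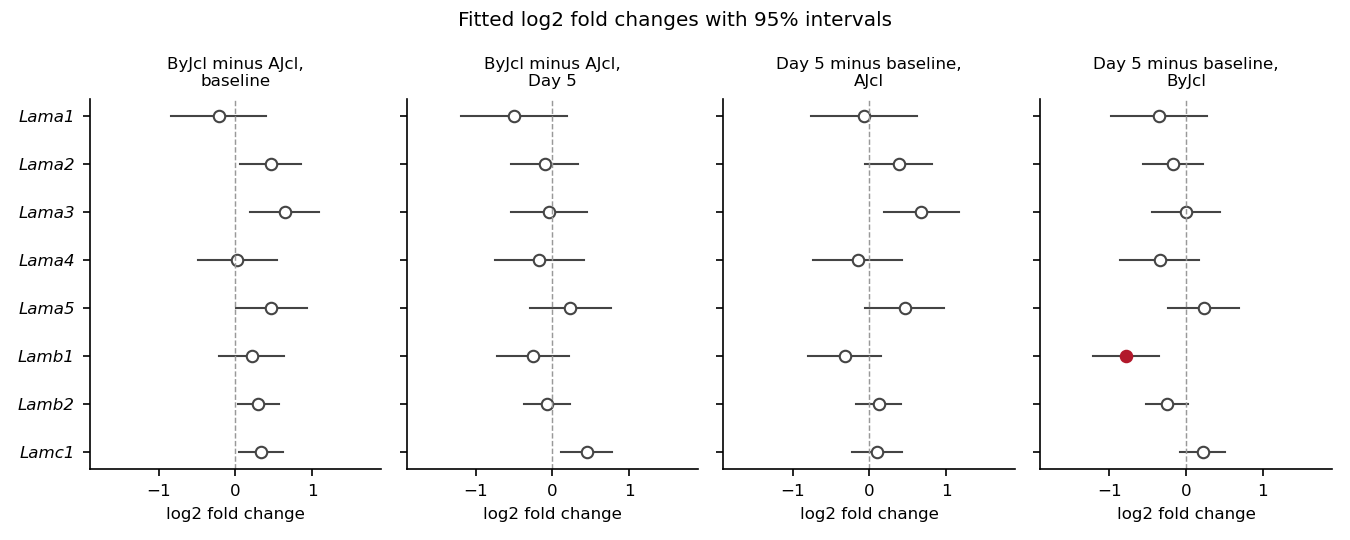
Fitted log2FC (points) with 95% intervals (lines) of 8 laminin chain genes in 4 contrasts, ByJcl minus AJcl at each time and Day 5 minus baseline in each substrain. The filled point, Lamb1 in ByJcl at -0.78, is the only value past an adjusted p of 0.05, and Lamb3 is left out because it had 2 to 16 counts per library.

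Lama4 (chromosome 10, 38841141 to 38998403, plus strand, GRCm39), the endothelial alpha chain, had 38.7, 51.4 and 46.1 CPM in AJcl and 45.1, 48.9 and 42.01 CPM in ByJcl at baseline. At Day 5 it had 37.4 and 43.6 CPM in AJcl, 23.6 CPM in A-ADR1, and 51.1, 22.3 and 34.8 CPM in ByJcl. The ByJcl Day 5 libraries spread the most, and replicate 2 was the lowest. It was also lowest in Lamb1 and in the summed endothelial and podocyte markers. The log2FC at Day 5 was -0.15 (SE 0.26) in AJcl and -0.35 (SE 0.24) in ByJcl, and neither passed the test. The value in ByJcl was -0.67 without ByJcl Day 5 replicate 1 (edgeR adjusted p = 0.0552) and -0.0945 without replicate 2, and that in AJcl ran from -0.29 to -0.0344 with each library left out. Of the exon bases of Lama4, 7.70% are shared with Gm67873 and 5.13% with Fam229b on the opposite strand.

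The ratio of Lama4 to Lama5 separated the times more than Lama4 alone. At baseline AJcl had 0.104, 0.0778 and 0.0830 counts of Lama4 per count of Lama5, and ByJcl had 0.0629, 0.0613 and 0.0654. At Day 5 it was 0.0586 and 0.0540 in AJcl, 0.0909 in A-ADR1, and 0.0625, 0.0217 and 0.0492 in ByJcl. In AJcl the 2 Day 5 libraries lay below the baseline libraries, and in ByJcl replicate 1 lay within the baseline range. The mean difference of the log2 ratio was -0.64 in each substrain (exact two-sided permutation test, p = 0.01, adjusted p = 0.0267). It was -0.52 with A-ADR1 included, with an exact permutation adjusted p of 0.1. With each library left out it ran from -0.80 to -0.41, with fewer arrangements and so a larger smallest p. Without ByJcl Day 5 replicate 2 it was -0.41 (exact permutation adjusted p = 0.0800), and 10 of 11 tests with a library left out were above 0.05, the exception again being ByJcl Day 5 replicate 1.

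Lama1 (chromosome 17, 68004223 to 68129642, plus strand, GRCm39), the alpha chain of early basement membranes, had 3.87 to 10.2 CPM at baseline. Day 5 levels were 6.34 and 7.35 CPM in AJcl, 6.31 CPM in A-ADR1, and 5.08, 4.99 and 4.40 CPM in ByJcl. The Day 5 libraries of the substrains did not overlap, with a log2FC of -0.50 (SE 0.31) that did not pass the test (edgeR adjusted p = 0.496). Relative to Lama5, Lama1 was lower in ByJcl. At baseline AJcl had 0.0140, 0.00972 and 0.0185 counts of Lama1 per count of Lama5, and ByJcl had 0.00542, 0.00953 and 0.0107. The Day 5 ratios were 0.00994 and 0.00911 for AJcl, and 0.00623, 0.00486 and 0.00625 for ByJcl. The groups overlapped at baseline and were apart at Day 5. The mean difference of the log2 ratio was -0.73 at each time (exact two-sided permutation test within times, p = 0.01, adjusted p = 0.0267). It was -0.95 with A-ADR1, whose ratio of 0.0243 was the highest of the 12, and the exact permutation adjusted p was then 0.0600. In all 11 tests with a library left out the adjusted p was above 0.05 (0.0667 to 0.107). The difference ran from -0.85 to -0.58 in them, and with fewer arrangements the smallest p that can be reached is larger. Between substrains, the 8 proximal tubule markers had a median log2FC of -0.79 at baseline and -0.88 at Day 5, and the 7 markers of the distal nephron and collecting duct had medians of -1.34 and -1.498. None of either list passed the test at either time, where the shares over all genes were 0.159% and 0.165%. The groups did not overlap for 4 of the 7 distal nephron and collecting duct markers at baseline and for 6 at Day 5, all lower in ByJcl, and for 0 and 1 of the 8 proximal tubule markers, against 14.5% and 33.4% of all genes. Averaged over times, where 0.565% of all genes were called, Calb1, a calcium-binding protein of the distal nephron, was called (log2FC -3.21, SE 0.59, edgeR adjusted p = 0.0391). Their part in the Lama1 ratio was not tested.

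From baseline to Day 5 the ratio of Lama1 to Lama5 differed by -0.51 on the log2 scale (exact permutation adjusted p = 0.120). With A-ADR1 included this difference was -0.29 (exact permutation adjusted p = 0.365). The ratio of Lama4 to Lama5 differed by -0.47 between substrains (exact permutation adjusted p = 0.144). For Lama2 to Lama5 the differences were -0.24 between times and -0.19 between substrains, with exact permutation adjusted p of 0.293 and 0.445. None of these 4 passed the test with the 11 libraries. Without ByJcl Day 5 replicate 1, the ratio of Lama4 to Lama5 between substrains was past the threshold, at -0.63 (exact permutation adjusted p = 0.04445). With each library left out, the differences of Lama2 to Lama5 ran from -0.38 to -0.13 between times and from -0.33 to -0.077 between substrains, the ends being without ByJcl Day 5 replicates 3 and 2, and none passed the test. This completes the 8 ratio tests with the value for the beta chains between substrains.

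**Figure D4:**
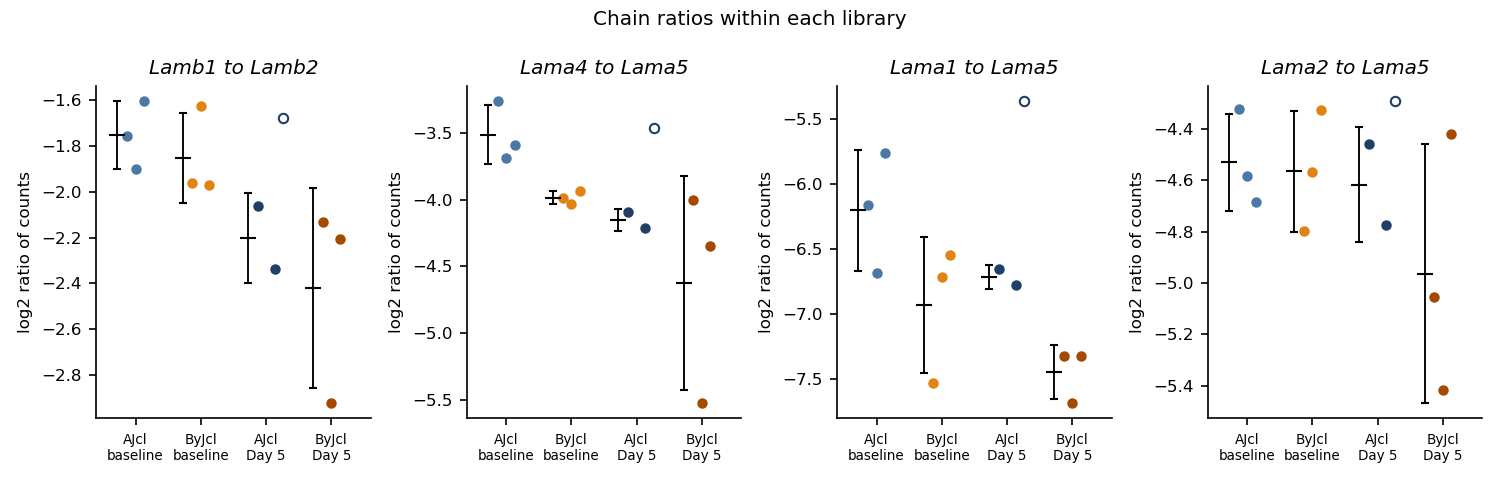
Log2 ratio of the counts of 2 chains in each library, for 4 pairs of chains and 4 groups. Filled points are the 11 libraries tested, the open circle is A-ADR1, and bars are the mean ± SD of the filled points. The ratio of Lamb1 to Lamb2 lies lower in the 5 filled Day 5 points than in the 6 baseline points, and A-ADR1 lies within the baseline range.

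Lama3, an alpha chain of epithelial laminin, had 24.0, 37.5 and 38.2 CPM in AJcl and 41.9, 63.7 and 46.7 CPM in ByJcl at baseline. After ADR it had 51.1 and 54.0 CPM in AJcl, 19.7 CPM in A-ADR1, and 42.7, 58.1 and 52.0 CPM in ByJcl. The AJcl baseline libraries were thus the lowest of the 11, apart from those of ByJcl at baseline and from those of AJcl at Day 5. The log2FC was 0.64 (SE 0.20, edgeR adjusted p = 0.530) between substrains at baseline and 0.68 (SE 0.22, edgeR adjusted p = 0.305) between times in AJcl, and ran from 0.42 to 0.76 and from 0.47 to 0.79 with each library left out. The difference between the responses to ADR was -0.68 (SE 0.30, edgeR adjusted p = 0.621). With A-ADR1 included, the log2FC for ADR in AJcl was 0.33 (edgeR adjusted p = 0.869) and the difference between the responses -0.32.

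Lama2 (chromosome 10, 26856032 to 27495754, minus strand, GRCm39) had 18.5 to 27.5 CPM in AJcl and 25.7 to 33.6 CPM in ByJcl at baseline. After ADR it had 29.0 and 29.5 CPM in AJcl, 13.3 CPM in A-ADR1, and 24.1 to 33.0 CPM in ByJcl. The AJcl Day 5 libraries lay just above the AJcl baseline libraries, with a log2FC of 0.39 (SE 0.20, edgeR adjusted p = 0.582). It was 0.0856 with A-ADR1 included (edgeR adjusted p = 0.964) and ran from 0.25 to 0.57 with each library left out. Lama2 shares 7.19% of its exon bases with Gm48084 on the opposite strand.

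Counted over the 9 genes, none passed the test between substrains at either time or for ADR in AJcl, and 1 did for ADR in ByJcl, where 10.6% of all genes did. Groups did not overlap for 3 genes between substrains at baseline (Lama3, Lamb2 and Lamc1, all higher in ByJcl), against 14.5% of all genes, and for 2 at Day 5 (Lamc1 higher, Lama1 lower), against 33.4%. They did not overlap for 3 in AJcl between times (Lama2 and Lama3 higher, Lamb1 lower at Day 5), against 25.1%, and for 2 in ByJcl (Lamb1 and Lamb2 lower), against 33.4%. Nothing particular to the laminin chains is read from these counts. The 2 substrain contrasts share libraries with the 2 ADR contrasts, so these counts are not independent of one another. The median log2FC of the 9 genes, Lamb3 included, was 0.30 between substrains at baseline, -0.07 at Day 5, 0.10 for ADR in AJcl and -0.17 for ADR in ByJcl, against medians over all genes of 0.01, 0.00, -0.01 and 0.01.

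Across the 11 libraries, the levels of Lama5 and Lamc1 followed each other most closely of all pairs of members (Pearson's r = 0.874 of log2 CPM), followed by Lama3 and Lama5 (r = 0.854) and Lama4 and Lamb1 (r = 0.842). Lama5 and Lamb1 had r = -0.365. Of the other genes tested, those closest in pattern to Lamb1 were Tns3 (r = 0.978) and Arhgap45 (r = 0.972), and those closest to Lama5 were Wasf2 (r = 0.977) and Dgka (r = 0.954). For Lamb2 they were Rprd2 (r = 0.940) and Col4a4 (r = 0.936), a type IV collagen chain of the same membrane. For Lamc1 they were Lrrc32 (r = 0.977) and Zfp598 (r = 0.964), for Lama3 Helz2 (r = 0.979) and Cds2 (r = 0.942), and for Lama4 Meis2 (r = 0.958) and Gtf3c5 (r = 0.948). Lama1 was closest to Cspg4b (r = 0.966) and Slc9a8 (r = 0.944), and Lama2 to Usp35 (r = 0.941) and Arnt (r = 0.926). Lamb3, near the floor, was closest to Bola3 (r = 0.899) and Rhno1 (r = 0.870). These values are the highest among all other genes tested, over libraries that share groups and cell make-up, and they are a description.

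The other genes of the laminin family, the receptors and the partners of laminin in basement membranes are given for comparison. None of 3 other laminin-type genes, Lamc3, Ntn1 and Ntn4, passed the test in any contrast, where the shares over all genes ran from 0% to 10.6%. The largest change among them in ByJcl at Day 5 was -0.55 (SE 0.17, edgeR adjusted p = 0.0619) for Ntn4, a netrin that binds laminin. Lamc3 had a log2FC of -0.43 (SE 0.16, edgeR adjusted p = 0.122) there.

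Of the 8 laminin receptors, 3 passed the test for ADR in ByJcl and none in AJcl, where the shares over all genes were 10.6% and 0.312%. Itgb1, the beta-1 integrin that pairs with most laminin-binding alpha subunits, rose from 1140 to 1334 CPM at baseline to 1838 to 2214 CPM (log2FC 0.67, SE 0.13, edgeR adjusted p = 0.00999), and Cd151, the tetraspanin partner of these integrins, rose by a log2FC of 0.46 (SE 0.12, edgeR adjusted p = 0.0339). Itga6, a laminin-binding alpha subunit, fell from 99.7 to 115 CPM to 67.3 to 82.9 CPM (log2FC -0.59, SE 0.11, edgeR adjusted p = 0.00785). In AJcl, Itga6 had a log2FC of -0.58 (SE 0.12, edgeR adjusted p = 0.102). Itga3, the main laminin receptor subunit of podocytes, had log2FC of 0.10 (SE 0.15) in AJcl and 0.07 (SE 0.14) in ByJcl. Averaged over substrains, where 10.4% of all genes were called, Itga7 was also called, at -0.41 (SE 0.11, edgeR adjusted p = 0.0446). The median of the 8 receptors was 0.06 in ByJcl and 0.13 in AJcl.

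Among 13 basement membrane partners, Col4a1 and Col4a2, the widely expressed type IV collagen chains, rose in ByJcl at Day 5, by log2FC of 0.98 (SE 0.21, edgeR adjusted p = 0.0155) and 1.23 (SE 0.25, edgeR adjusted p = 0.0122). Col4a3, a chain of the mature glomerular network, fell (log2FC -0.77, SE 0.18, edgeR adjusted p = 0.0213, and 0.118 with A-ADR1 included). Of the 13, 3 passed the test in ByJcl and none in AJcl, beside the same 10.6% and 0.312% of all genes, and their median log2FC was 0.10 for AJcl against 0.00 for ByJcl. Averaged over substrains, where 10.4% of all genes were called, Col4a1, Col4a2, Col4a5 and Col4a6 were higher, of which Col4a1 and Col4a6 were not called with A-ADR1 included (edgeR adjusted p = 0.0606 and 0.0985). Nid1, the linker that bridges laminin and type IV collagen, had a log2FC of 0.09 (SE 0.17) in AJcl and 0.00 (SE 0.15) in ByJcl. The interaction was called for none of the receptors and partners, and for 0 of the 17002 genes tested.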

How the data were processed

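Per the labels, poly(A)-selected, strand-specific libraries of bead-isolated glomeruli were sequenced as paired reads. The authors used Trimmomatic for trimming, STAR for alignment (GRCm39) and featureCounts for counting, and deposited whole-number counts per gene, unnormalised, for baseline and Day 5 in separate tables. The annotation and strand setting are not given in the sources used here. Baseline columns are named Ctrl, whereas the labels call these mice untreated. Between 77.1% and 82.8% of counts from 1 to 49 were even in each library, and whether both mates of a pair were counted was not tested. Replicates of a group differed beyond sampling noise (chi-square per degree of freedom 44.6 to 271).

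Counts were analysed in R 4.3.3 with edgeR 4.0.16 (filterByExpr, TMM, quasi-likelihood test, 4 group coefficients, 7 residual degrees of freedom, Benjamini-Hochberg over 17002 genes), with calls at an adjusted p below 0.05. Chain ratios used counts with 0.5 added. The fit was tested on simulated data. Named were all 9 members, called genes and the highest-level genes of the lists, Nid1 in addition, and the 2 genes closest in pattern to each member. DESeq2 1.42.0, other filters and scalings, A-ADR1 included, a replicate block and each library left out were alternatives. The members, lists and ratios were chosen with earlier results of these data known. Some genes of the lists are not reported here, and sums, shares and counts leave them out.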

Additional observations from a re-analysis of the deposited data

How the results depend on the processing

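Lamb1 was called lower at Day 5 in ByJcl and averaged over substrains under DESeq2, RLE size factors, both other filters and with A-ADR1 included. Levels centred within each group were correlated between libraries of the same replicate number (15 same-number pairs, r from -0.389 to 0.527, 5 above 0.1). With 2 or 3 libraries per group this cannot decide whether the numbers pair the libraries. The replicate numbers were not used in the main fit. With them as a replicate block, 0 members were called for ADR in ByJcl (Lamb1 -0.79, edgeR adjusted p = 0.0507) and 0 averaged (-0.55, 0.0684), and over all genes 26 were called for ADR in AJcl, 1592 in ByJcl, 19 between substrains at baseline and 19 at Day 5. Lama2 and Lama3 then had 0.0063 and 0.0997 between substrains at Day 5. DESeq2 called 101 genes between substrains at baseline, 555 at Day 5 and 696 averaged over times (1 member, Lamc1), 301 for ADR in AJcl and 23 for the interaction. Without a filter, 56 were called between substrains at Day 5 and 99 for ADR in AJcl. With A-ADR1 included (12 libraries), 72 were called between substrains at Day 5 and 1197 for ADR in ByJcl, and the log2 ratio differences were -0.42 (Lamb1 to Lamb2), -0.95 (Lama1 to Lama5, between substrains) and -0.52 (Lama4 to Lama5), none past the threshold.

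No member whose sign turned was called in edgeR. With 12 libraries, the log2FC was -0.0028 for Lama4 between substrains at baseline; 0.19 for Lama2, 0.29 for Lama3, 0.0476 for Lama4, 0.0741 for Lamb2 and -1.09 for Lamb3 at Day 5; -0.0402 for Lamb2, 0.83 for Lamb3 and -0.15 for Lamc1 for ADR in AJcl; 0.0059 for Lama3 for ADR in ByJcl; 0.0504 for Lama4 and 0.14 for Lama5 for the interaction; -0.0378 for Lama2 for ADR averaged; and 0.0224 for Lama4 between substrains averaged. Lama3 for ADR in ByJcl was 0.0111 under DESeq2 and RLE size factors and 0.0061 with a minimum of 1 CPM in 3 libraries. The cause was not tested.

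With each library left out in turn, calls over all genes ran from 12 to 29 (substrain at baseline), 9 to 218 (substrain at Day 5), 11 to 180 (ADR in AJcl), 680 to 2056 (ADR in ByJcl), 531 to 1816 (ADR averaged), 34 to 280 (substrain averaged) and 0 to 5 (interaction), and members called from 0 to 1 for ADR in ByJcl and averaged. The log2 ratio differences ran from -0.58 to -0.38 for Lamb1 to Lamb2 between times, -0.85 to -0.58 for Lama1 to Lama5 between substrains, -0.80 to -0.41 for Lama4 to Lama5 between times and -0.63 to -0.25 between substrains, with fewer arrangements to test. Ranges across 0 were, between substrains at baseline, -0.45 to 0.0858 (Lama1) and -0.11 to 0.14 (Lama4); at Day 5, -0.15 to 0.0659 (Lama3), -0.51 to 0.0818 (Lama4) and -0.18 to 1.33 (Lamb3); averaged, -0.25 to 0.0531 (Lama4) and -0.13 to 0.0851 (Lamb1); for ADR in AJcl, -0.28 to 0.25 (Lama1) and -0.0637 to 0.22 (Lamc1); in ByJcl, -0.13 to 0.19 (Lama3); averaged, -0.11 to 0.0033 (Lamb2) and -0.25 to 0.51 (Lamb3); and for the interaction, -0.50 to 0.0573 (Lama4).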

Other observations

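In A-ADR1, which the main tests leave out, Lamb3 had 48 counts, against 2 to 16 in each of the other 11 libraries. The 7 markers of the distal nephron and collecting duct summed to 2042 CPM in that library, against 99.0 to 1683 CPM in the others, and its 8 proximal tubule markers to 3531 CPM. The part of these markers in the Lamb3 count was not tested.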
